A study of Homo sapiens with 6 samples.

Results

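The genes described here are 9 that carry the TGF-beta signal from the cell surface to the nucleus: the ligands TGFB1 and TGFB2, the receptors TGFBR1 and TGFBR2, the signal carriers SMAD2, SMAD3 and SMAD4, the inhibitor SMAD7, and TGFBI, a matrix gene named for its induction by TGF-beta. They are chosen by name, and all 9 are among the 58395 genes that the files list. HCT116 is a human colorectal cancer cell line. Its RNA is sequenced from 3 biological replicates with a lentiviral hairpin that has no target (shControl) and 3 with a lentiviral hairpin against STBD1 (shSTBD1), both grown without any added TGF-beta named in the sources. STBD1 encodes a glycogen-binding protein that brings glycogen to autophagosomes. Both groups are infected with lentivirus and kept in a selection medium. The shSTBD1 group rests on 1 hairpin sequence, so an effect of the loss of STBD1 and any other effect of that hairpin cannot be told apart.

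TGF-beta is secreted in a latent form and, once released, binds TGFBR2, which recruits and phosphorylates TGFBR1. The activated TGFBR1 kinase phosphorylates SMAD2 and SMAD3, which join SMAD4, enter the nucleus and act on genes that include SMAD7, whose product blocks the receptor. In the intestinal epithelium the pathway restrains growth, and its genes are frequent targets of loss in colorectal cancer. HCT116 cells are known to carry inactivating changes in TGFBR2 while they retain SMAD4. The deposited values count RNA and do not show whether a transcript encodes a working protein.

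The SMAD3–SMAD4 complex is known to recognise the bases CAGAC, read as GTCTG on the other strand. To show what lies just before the start of these genes, the 250 bases upstream of the RefSeq start nearest the canonical Ensembl start are given for 4 of them (GRCh38.p14, 5' to 3' on the strand of the gene, with CAGAC or GTCTG in capitals). TGFBR2 (chr3:30606351-30606600, plus strand) and SMAD3 (chr15:67065352-67065601, plus strand) are shown because their RNA is lower in shSTBD1 under most settings. TGFBR1 (chr9:99104863-99105112, plus strand) and SMAD7 (chr18:48950966-48951215, minus strand) are shown because their windows hold the motif.
TGFBR2: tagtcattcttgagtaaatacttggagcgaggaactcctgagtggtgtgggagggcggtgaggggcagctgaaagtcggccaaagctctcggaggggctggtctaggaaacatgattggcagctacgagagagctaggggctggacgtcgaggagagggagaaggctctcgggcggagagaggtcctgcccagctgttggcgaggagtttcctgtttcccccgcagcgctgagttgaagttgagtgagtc
SMAD3: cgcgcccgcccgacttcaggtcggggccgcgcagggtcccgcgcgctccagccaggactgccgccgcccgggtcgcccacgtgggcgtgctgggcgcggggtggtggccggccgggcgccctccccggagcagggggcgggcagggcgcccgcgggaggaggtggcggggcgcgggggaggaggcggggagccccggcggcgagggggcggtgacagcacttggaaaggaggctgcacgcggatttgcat
TGFBR1: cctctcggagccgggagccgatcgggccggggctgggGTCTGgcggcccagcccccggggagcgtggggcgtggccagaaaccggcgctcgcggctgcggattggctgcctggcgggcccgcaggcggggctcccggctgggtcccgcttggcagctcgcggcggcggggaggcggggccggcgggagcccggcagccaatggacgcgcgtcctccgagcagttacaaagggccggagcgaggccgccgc
SMAD7: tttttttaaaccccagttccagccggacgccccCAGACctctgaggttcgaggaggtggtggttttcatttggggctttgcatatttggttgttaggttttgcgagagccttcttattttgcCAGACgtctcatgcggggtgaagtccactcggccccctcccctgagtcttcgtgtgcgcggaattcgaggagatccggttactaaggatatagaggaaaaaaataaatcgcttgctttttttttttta

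SMAD7 holds 2 matches, the first at -217 and the last at -128 from the start, and TGFBR1 holds 1 at -213. TGFB2, not printed, also holds 2, and the windows of TGFB1, TGFBR2, SMAD2, SMAD3, SMAD4 and TGFBI hold none. Over 35116 such windows of all RefSeq genes, 38% hold the motif on either strand, which is close to 3 of the 9. The palindrome GTCTAGAC occurs in 0.182% of all windows and in none of these. A match is a string of letters and not a binding site, and no match says only that the letters are not in this window. The GC content of the windows runs from 48.0% in SMAD7 to 84.4% in SMAD2.

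The libraries hold 17689097 to 21668274 expected counts each. An expected count is RSEM's estimate of the reads from a gene, which the authors leave without normalization. Levels are given as CPM, counts per 1000000 counts of the library after TMM scaling, for a gene between groups, and as TPM, RSEM's value per transcript length, between genes. Tests are edgeR's quasi-likelihood F-test on the rounded expected counts of 15566 genes, with Benjamini-Hochberg adjustment over all of them and 0.05 as the threshold. 1 library, shControl replicate 1, stands apart: in a comparison of counts between 2 libraries, its chi-square per gene is 6.20 against shControl replicate 2 and 4.93 against shControl replicate 3, where those 2 give 1.65 and the shSTBD1 libraries give 1.80 to 2.02 among themselves. It also lies farther from the shSTBD1 libraries, at 10.7 to 13.4, than shControl replicates 2 and 3 do, at 5.59 to 6.61. Values without it are given beside some of the results below, but not beside every gene whose change it moves. In bulk RNA, fewer cells of a type and less RNA per cell cannot be told apart. STBD1, the target of the hairpin, is at 16.2, 15.7 and 14.4 CPM in shControl and at 11.6, 9.07 and 9.16 CPM in shSTBD1, so its groups do not overlap. STBD1 shares 1986 exon bases on its own strand with the read-through gene FAM47E-STBD1, which averages 6.96 CPM in shControl and 5.23 CPM in shSTBD1, and the posterior standard deviation of the STBD1 count is 8.37%. Reads from the shared bases cannot be given to either gene with certainty. The epithelial markers differ widely in level. EPCAM is at 216 ± 3.96 CPM in shControl and 222 ± 2.91 CPM in shSTBD1 (SD, n = 3), and KRT8, KRT18 and KRT19 are above it. The intestinal markers are lower, with CDX2 at means of 14.75 CPM in shControl and 14.06 CPM in shSTBD1. KRT20 is at 1.31 and 2.07 CPM, and VIL1, at 0.21 and 0.15 CPM, is too low to test. The summed level of 8 epithelial markers is 3349 to 3588 CPM in shControl and 3974 to 4063 CPM in shSTBD1. Of the 7 tested, 4 are higher in shSTBD1 at an adjusted p under 0.05 in edgeR: CDH1, KRT8, KRT18 and KRT19. Over all tested genes 8.22% are called higher. EPCAM, KRT20 and CDX2 are not called, with CDX2 at a log2 fold change of -0.072. Of the other cell types, 5 fibroblast markers sum to at most 0.605 CPM in any library, 3 endothelial markers sum to at most 0.966 CPM, and the immune markers PTPRC and CD3E are at 0 throughout. CD68, a lysosomal gene also used as a macrophage marker, is higher in shSTBD1, at 13.4 ± 0.44 CPM against 9.69 ± 1.13 CPM (SD, n = 3). Whether any part of the results below follows the epithelial markers or CD68 was not tested.

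Of the 9 genes, 8 hold enough counts to be tested, and 4 of the 8 are lower in shSTBD1 at an adjusted p under 0.05 in edgeR's quasi-likelihood test: TGFBR1, TGFBR2, SMAD3 and SMAD4. Over all tested genes 15.8% pass in either direction, 7.54% lower and 8.22% higher. None of the 8 is higher in edgeR, whether adjusted or at an unadjusted p under 0.05, and none in DESeq2. DESeq2 calls 2 of the 4, SMAD3 and TGFBR2, edgeR with offsets for the effective transcript length calls SMAD3, and limma on log2(TPM + 1) calls none of the 8. Of all genes that each of these fits tests, DESeq2 calls 12.4%, edgeR with effective-length offsets 3.28% and limma on log2(TPM + 1) 1.88%. Without shControl replicate 1, edgeR calls 2, SMAD3 (log2 fold change -0.20, adjusted p = 2.5e-04) and TGFBR2 (-0.26, 4.4e-04). The share of all tested genes called is then 16.2%. The decreases are small, from 10.1% in SMAD4 to 14.4% in TGFBR2. In all 4 genes the CPM ranges of the groups are apart, with shSTBD1 below, a pattern found in 16.3% of all tested genes in this direction and 33.6% in either. The median log2 fold change of the 8 is -0.17, against 0.0023 over all tested genes. The set was chosen with earlier results of these data known, so these counts describe the genes and are no test of the set.

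**Figure D1:**
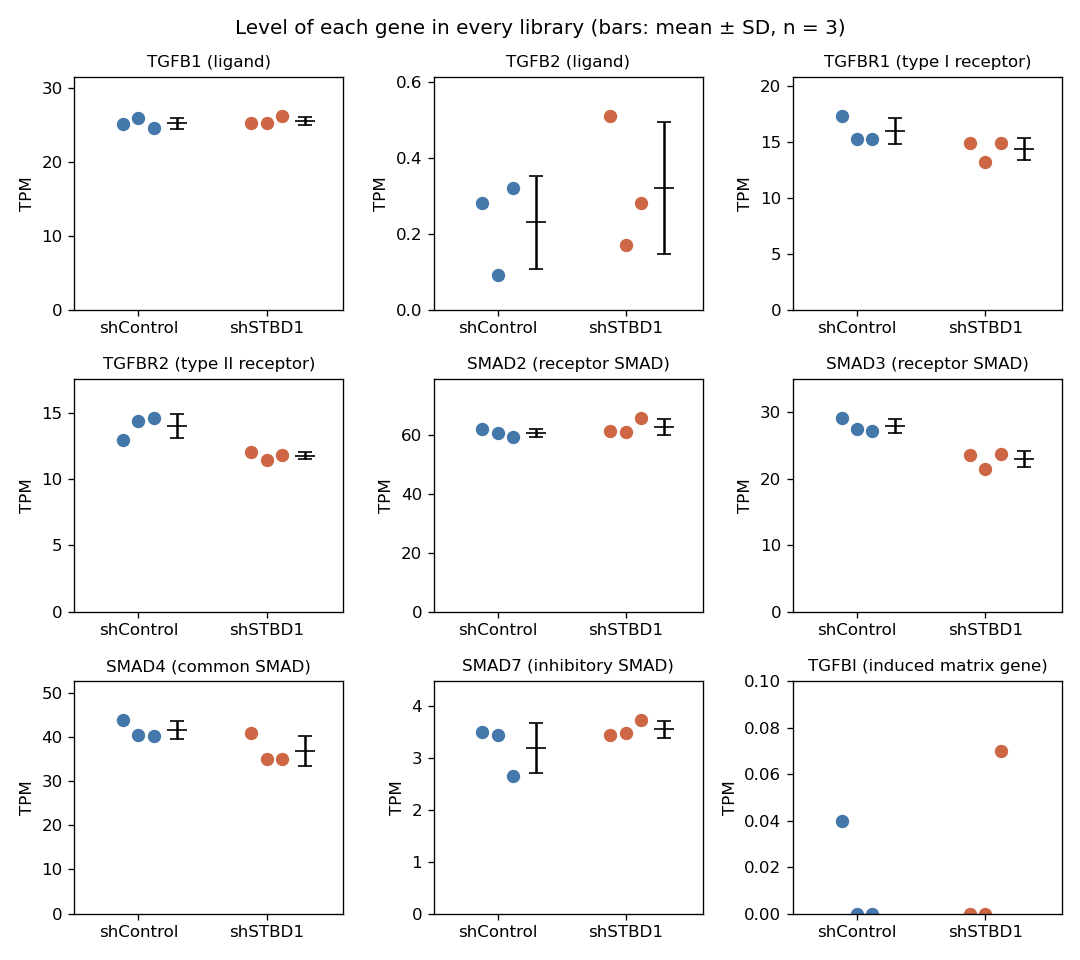
Level of the 9 genes in TPM (vertical axis, a separate linear scale from 0 in each panel) in 3 shControl and 3 shSTBD1 libraries. Points are libraries and bars the mean ± SD of 3, left out for TGFBI, which has no more than 2 counts in any library. In TGFBR1, TGFBR2 and SMAD3 the shSTBD1 points lie below all shControl points, while in SMAD4 shSTBD1 replicate 1, at 40.87 TPM, overlaps the control range.

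Of the ligands, TGFB1, the main form of TGF-beta in most tissues, is the abundant one. Its gene lies on the minus strand of chromosome 19 from 41301587 to 41353922 (GRCh38). It is at 25.18, 25.94 and 24.55 TPM in shControl and at 25.30, 25.27 and 26.25 TPM in shSTBD1. These ranges overlap. Its log2 fold change is -0.015 (95% interval -0.12 to 0.086, adjusted p = 0.88 in edgeR's quasi-likelihood test). The gene shares 215 exon bases with HNRNPUL1 on the other strand, which is at 287 CPM in shControl, and the sources do not state whether the counting used strand. The sign of the TGFB1 value is not stable, since effective-length offsets give 0.032.

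TGFB2, on the plus strand of chromosome 1 from 218345336 to 218444619, is close to the limit of the data. Its libraries hold 18.96, 6.39 and 8.94 expected counts in shControl and 18, 5 and 7 in shSTBD1. In TPM these are 0.28, 0.09 and 0.32 against 0.51, 0.17 and 0.28, a mean in shControl that exceeds only 1.25% of tested genes. The 95% interval of its log2 fold change, -1.35 to 0.92, is the widest of the 8 (log2 fold change -0.22, adjusted p = 0.83 in edgeR's test), so only very large changes could be seen, and effective-length offsets turn the value to 0.59. Its count has a posterior standard deviation in RSEM of 6.72%, the largest of the 8 tested genes. TGFB2 shares 1371 exon bases with TGFB2-OT1 on its own strand and 701 with TGFB2-AS1 on the other, both of which average at most 0.10 CPM in either group. The third ligand, TGFB3, belongs to the wider list and is at 2.03 ± 0.33 CPM in shControl and 2.30 ± 0.38 CPM in shSTBD1 (SD, n = 3), which is 0.18 on the log2 scale with an adjusted p of 0.62 in edgeR.

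The ratio of TGFB2 to TGFB1 in TPM is 0.00921 ± 0.0051 in shControl and 0.0125 ± 0.0069 in shSTBD1 (SD, n = 3). The mean log2 ratio differs by 0.51 between the groups (two-sided exact permutation test, p = 0.7, where 3 libraries against 3 allow no p below 0.1). Taken from expected counts the difference is -0.30, and without shControl replicate 2 it is -0.090, so no direction can be given. In every library TGFB1 exceeds TGFB2.

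Both receptors are lower in shSTBD1. TGFBR2, the receptor that binds the ligand first, lies on the plus strand of chromosome 3 from 30606601 to 30694142. It is at 50.5, 53.4 and 55.2 CPM in shControl and at 45.9, 44.5 and 45.8 CPM in shSTBD1. The highest shSTBD1 library stands below the lowest control, and the shSTBD1 libraries lie closer to each other than the controls do, with an SD of 0.79 against 2.39 CPM. TGFBR2 fell by 14.4% (log2 fold change -0.23 with a standard error of 0.047, 95% interval -0.32 to -0.13, adjusted p = 0.0038 in edgeR's quasi-likelihood test). The call holds with each library left out in turn, with adjusted p-values up to 0.031 in edgeR, and in DESeq2 with an adjusted p of 0.013. It ends with effective-length offsets (log2 fold change -0.24, adjusted p = 0.070 in edgeR), although the weighted transcript length of TGFBR2 runs only from 4617 to 4620 bases. Over all settings the adjusted p runs from 4.3e-04 to 0.17.

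TGFBR1, the kinase that passes the signal to SMAD2 and SMAD3, lies on the plus strand of chromosome 9 from 99104038 to 99154192. It is at 58.1, 50.9 and 55.5 CPM in shControl and at 49.8, 48.7 and 45.3 CPM in shSTBD1. The groups do not overlap, but shControl replicate 2 and shSTBD1 replicate 1 nearly meet. TGFBR1 fell by 12.5% (log2 fold change -0.19 with a standard error of 0.054, 95% interval -0.31 to -0.078, adjusted p = 0.023 in edgeR's quasi-likelihood test). The call is lost without shControl replicate 1 (log2 fold change -0.15, adjusted p = 0.057 in edgeR), shControl replicate 3 (0.071), shSTBD1 replicate 2 (0.066) or shSTBD1 replicate 3 (0.12). DESeq2 gives -0.20 with an adjusted p of 0.057, and effective-length offsets in edgeR give -0.15 with 0.37. Over all settings the log2 fold change runs from -0.25 to -0.14.

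Whether the receptors differ in their change cannot be decided by the test used on their ratio, which allows no p below 0.1. The ratio of TGFBR2 to TGFBR1 in TPM is 0.75, 0.94 and 0.96 in shControl and 0.81, 0.87 and 0.80 in shSTBD1, which overlap. The mean log2 ratio differs by -0.093 between the groups (two-sided exact permutation test, p = 0.4). Without shControl replicate 1 the ratios of the groups do not overlap and the difference is -0.21 (p = 0.1, exact permutation test). TGFBR3, the co-receptor that presents ligand to TGFBR2, is at 13.2 ± 1.17 CPM in shControl and 15.7 ± 1.03 CPM in shSTBD1 (SD, n = 3; log2 fold change 0.25, 95% interval 0.071 to 0.43, adjusted p = 0.056 in edgeR). TGFBR3 passes with gene length trend offsets (adjusted p = 0.033 in edgeR) and not in DESeq2 (0.21), with effective-length offsets (0.28) or in limma on log2(TPM + 1) (0.41).

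**Figure D2:**
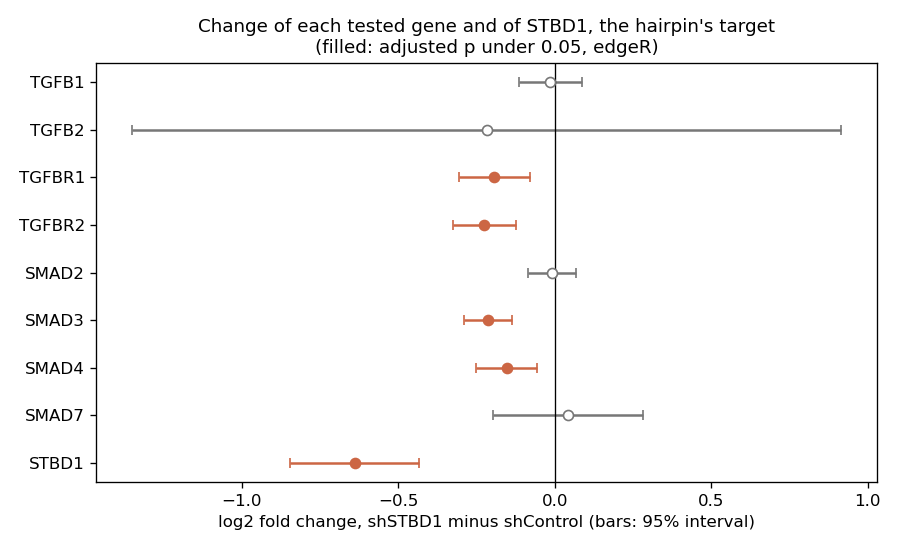
Log2 fold change, shSTBD1 minus shControl (horizontal axis), of the 8 tested genes and of STBD1, the target of the hairpin, with 95% intervals from edgeR. Filled points pass an adjusted p of 0.05: TGFBR1, TGFBR2, SMAD3 and SMAD4 lie between -0.23 and -0.15, against -0.64 for STBD1, while the interval of TGFB2 runs from -1.35 to 0.92.

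Of the SMADs that the receptor phosphorylates, SMAD3 is lower and SMAD2 is not called. SMAD3, which binds DNA directly, lies on the plus strand of chromosome 15 from 67063763 to 67195173. It is at 124.5, 118.7 and 120.6 CPM in shControl and at 108.1, 103.6 and 102.1 CPM in shSTBD1. The groups are apart, and each spans a narrow range. SMAD3 fell by 13.8% (log2 fold change -0.21 with a standard error of 0.036, 95% interval -0.29 to -0.14, adjusted p = 6.8e-04 in edgeR's quasi-likelihood test). By its unadjusted p it ranks 429 among the 15566 tested genes. The call holds with each library left out, with adjusted p-values up to 0.0096 in edgeR, in DESeq2 with 2.5e-04, and with effective-length offsets with 0.036. Limma on log2(TPM + 1) gives -0.27 with an adjusted p of 0.080. An antisense gene, ENSG00000259347, shares 182 exon bases with SMAD3 and is at 1.22 CPM in shControl.

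SMAD2, whose main form does not bind DNA itself, lies on the minus strand of chromosome 18 from 47808957 to 47931146. It is at 98.4, 95.5 and 95.5 CPM in shControl and at 95.2, 93.9 and 98.7 CPM in shSTBD1, with overlapping groups. Its log2 fold change is -0.0085 (95% interval -0.085 to 0.068, adjusted p = 0.91 in edgeR), so the interval of SMAD2 holds no part of that of SMAD3. Effective-length offsets turn its sign, to 0.056.

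In each library, SMAD3 can be set against SMAD2. The TPM ratio of SMAD3 to SMAD2 is 0.47, 0.45 and 0.46 in shControl and 0.38, 0.35 and 0.36 in shSTBD1. Every shSTBD1 library is below every control. The mean log2 ratio is -1.45 in shSTBD1 and -1.12 in shControl, a difference of -0.33 (p = 0.1 in the exact permutation test, two-sided, which can give no smaller p here). With each library left out the difference runs from -0.36 to -0.31. Taken from expected counts the ratio is 1.27, 1.24 and 1.26 in shControl and 1.14, 1.10 and 1.03 in shSTBD1, a log2 difference of -0.21 (two-sided exact permutation test, p = 0.1). The difference in TPM is thus larger than that in reads.

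TPM divides by the length of the transcripts that RSEM assigns to a gene, and this length differs between libraries. The weighted transcript length of SMAD2 is 2034, 2114 and 2126 bases in shControl and 2039, 2000 and 1957 in shSTBD1, and that of SMAD3 is 5042, 5332 and 5388 against 5496, 5659 and 5111. The SMAD2 value is lower in shSTBD1 on average and the SMAD3 value is higher, but both overlap between the groups. In limma on log2 length, none of the 8 tested genes differs at an adjusted p under 0.05, nor does any of the 13130 genes whose length varies, which is 0%. Without adjustment, 802 genes or 6.11% are under 0.05, with none of the 8 among them. The nearest is SMAD2, with a log2 difference of -0.065 (adjusted p = 0.83 in limma).

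**Figure D3:**
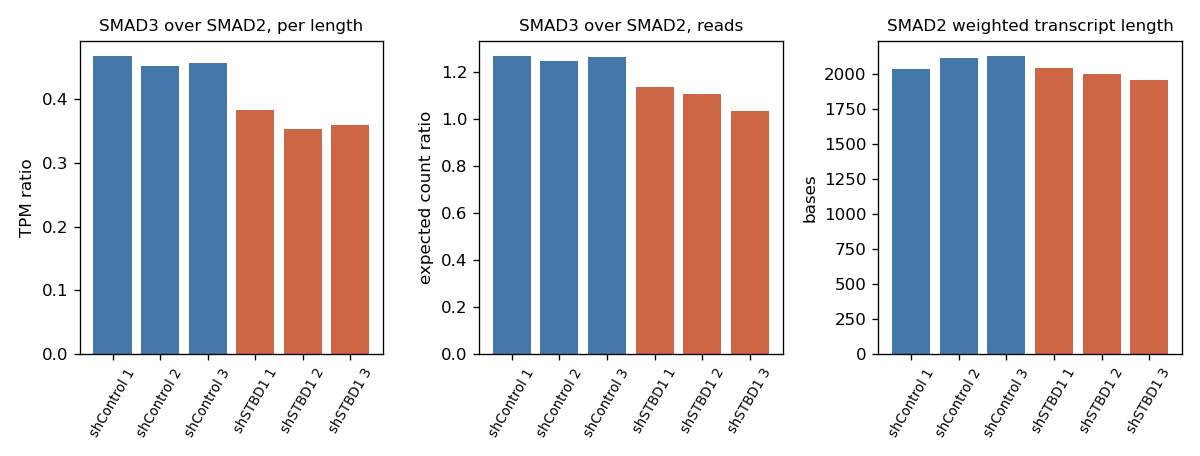
Ratio of SMAD3 to SMAD2 in TPM (left) and in expected counts (middle), and weighted transcript length of SMAD2 in bases (right), each bar 1 library and each axis from 0. The ratio is lower in all 3 shSTBD1 libraries on both scales, at 0.35 to 0.38 against 0.45 to 0.47 in TPM, while the SMAD2 lengths of the groups overlap.

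SMAD4, the shared partner of all activated SMADs, lies on the plus strand of chromosome 18 from 51028528 to 51085045. It is at 77.2, 70.5 and 69.5 CPM in shControl and at 65.0, 66.9 and 63.3 CPM in shSTBD1. The groups do not overlap, and shControl replicate 1 stands well above the other two controls. SMAD4 fell by 10.1% (log2 fold change -0.15 with a standard error of 0.046, 95% interval -0.25 to -0.057, adjusted p = 0.031 in edgeR's quasi-likelihood test). The call is lost without shControl replicate 1 (log2 fold change -0.11, adjusted p = 0.086 in edgeR), shSTBD1 replicate 1 (0.087), shSTBD1 replicate 2 (0.060) or shSTBD1 replicate 3 (0.13). The calls in DESeq2 (adjusted p = 0.082) and with effective-length offsets in edgeR (0.28) are lost at a like size, -0.16 in both. In TPM, SMAD4 is at 43.93, 40.57 and 40.21 in shControl and at 40.87, 35.07 and 34.96 in shSTBD1, so there shSTBD1 replicate 1 lies inside the control range. That library has the shortest SMAD4 weighted length, 2089 bases, against 2234 to 2409 in the others. SMAD4 shares 967 exon bases on its own strand with ENSG00000267699, a gene at 0.42 CPM in shControl, and the posterior standard deviation of its count is 0.13%.

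SMAD7, the inhibitor that the pathway itself induces, lies on the minus strand of chromosome 18 from 48919853 to 48950965. Its libraries hold 138, 146 and 111 expected counts in shControl and 138, 150 and 132 in shSTBD1. In CPM it is at 6.81 ± 0.48 in shControl and 7.03 ± 0.46 in shSTBD1 (SD, n = 3), with overlapping groups. Its log2 fold change is 0.042 (95% interval -0.20 to 0.28, adjusted p = 0.85 in edgeR), a wider interval than those of the receptors. Without shControl replicate 3 or without shSTBD1 replicate 1 the value is -0.011.

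TGFBI, a matrix protein gene on the plus strand of chromosome 5 from 136028988 to 136063818, is almost without reads. Its libraries hold 1, 0 and 0 counts in shControl and 0, 0 and 2 in shSTBD1, and it was not tested. A count of 0 allows up to 3 counts, which is 0.138 to 0.169 CPM in these libraries, counting error only. No fold can be given, since both groups are at or under this limit.

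**Figure D4:**
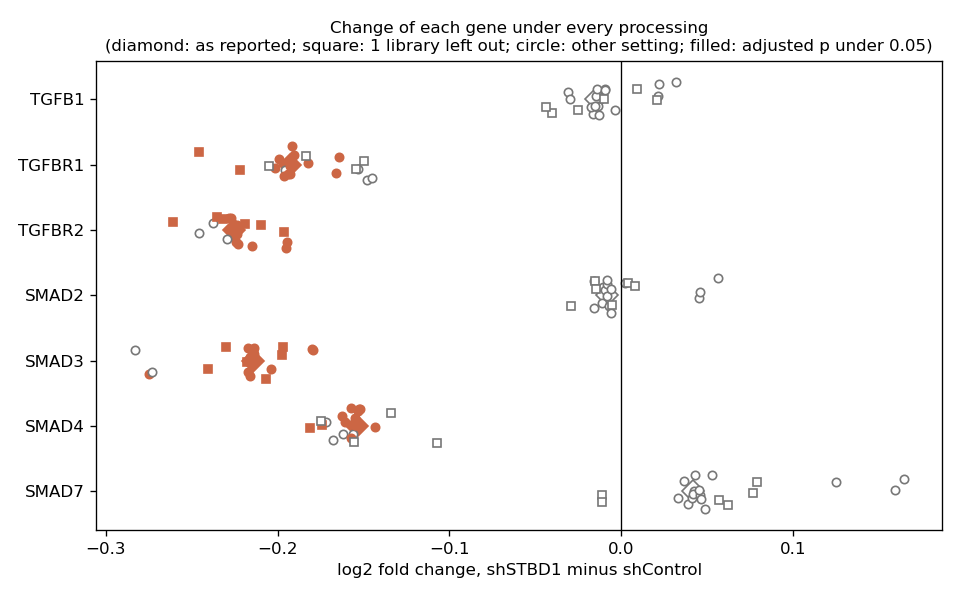
Log2 fold change of 7 of the tested genes (TGFB2 left out for scale) under every processing: the value reported (diamond), each library left out (squares) and the other settings (circles), filled where the adjusted p is under 0.05. SMAD3, TGFBR2, TGFBR1 and SMAD4 stay below 0 in all, from -0.28 to -0.11, while the other 3 fall on both sides of 0.

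In order of TPM in shControl, the genes run from SMAD2 (60.8 ± 1.48) through SMAD4 (41.6 ± 2.05), SMAD3 (27.9 ± 1.08), TGFB1 (25.2 ± 0.70), TGFBR1 (15.9 ± 1.17), TGFBR2 (14.0 ± 0.89) and SMAD7 (3.20 ± 0.47) to TGFB2 (0.23 ± 0.12), with TGFBI last (mean ± SD, n = 3). No neighbours from SMAD2 to TGFB2 overlap in their control libraries. In shSTBD1 the order is the same but for SMAD3 and TGFB1, which change places. In shControl the lowest SMAD3 library, at 27.09 TPM, is above the highest TGFB1 library, at 25.94 TPM, and in shSTBD1 the highest SMAD3 library, at 23.70 TPM, is below the lowest TGFB1 library, at 25.27 TPM. This reversal was noticed after the values were seen and rests on TPM alone, the scale on which genes can be compared.

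For each of the 4 genes that pass, the 2 tested genes with the most similar log2 CPM over the 6 libraries are given as a description. For SMAD3 they are NFKB1 (Pearson r = 0.998) and USP24 (0.998), and 2.51% of all tested genes have an r over 0.95 with it. For TGFBR2 they are ENSG00000233178 and NT5DC2 (0.993 each), for TGFBR1 PARVB (0.991) and TMBIM6 (0.987), and for SMAD4 PDPR (0.997) and ETF1 (0.993). Between 0.899% and 1.09% of tested genes exceed 0.95 with TGFBR1, TGFBR2 or SMAD4. The points share their libraries and the 2 groups. A gene that is lower in shSTBD1 and varies little within the groups can therefore give a high r from the group difference alone.

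Beyond the 9 genes, 78 genes of the wider TGF-beta and BMP pathways were listed by role, and 70 of them could be tested. Of the 70, 15 pass an adjusted p of 0.05 in edgeR's quasi-likelihood test, 8 lower and 7 higher in shSTBD1, or 21.4% against 15.8% of all tested genes. Their median log2 fold change is -0.0077. All 7 higher genes are in the lists of genes induced by TGF-beta or BMP, which hold 1 of the 8 lower genes. These lists too were chosen with earlier results of these data known. The share and the split by list therefore describe the listed genes and are no test of the pathway.

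Among 12 genes for the storage and release of latent TGF-beta, 10 are tested and 2 are lower, or 20%. Over all tested genes 7.54% are called lower, and in lists this short a single call moves the share far. LTBP3, which binds latent TGF-beta to the matrix, is at 161 ± 0.93 CPM in shControl and 129 ± 1.70 CPM in shSTBD1 (SD, n = 3). Its change of -0.31 in log2 (standard error 0.031, adjusted p = 3.5e-06 in edgeR) passes under every setting tried. ITGAV, the alpha chain of integrins that release TGF-beta, is at -0.13 in log2 fold change (adjusted p = 0.026 in edgeR), which passes with 1 library left out only when that is shControl replicate 1. Without any of the other libraries its adjusted p is 0.055 to 0.12. The call of ITGAV also ends in DESeq2 (0.076), with scaling by library total alone (0.056) and with gene length trend offsets (0.12), while effective-length offsets give a larger -0.34 (0.025). The other 8 are not called, and the median over the 10 is -0.021.

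Of 6 activin and BMP ligands, 5 are tested and 1 is lower, or 20% against 7.54% of all tested genes. BMP4, a ligand of the BMP branch, is at 104.2 ± 0.83 CPM in shControl and 87.8 ± 1.03 CPM in shSTBD1 (SD, n = 3; log2 fold change -0.25 with a standard error of 0.034, adjusted p = 1.1e-04 in edgeR). It passes under every setting tried. Of 11 other receptors and co-receptors, 10 are tested and 1 is lower, or 10%, near that share of all tested genes. The 1 is ACVR2B, an activin type II receptor, with a log2 fold change of -0.17 (adjusted p = 0.045 in edgeR). ACVR2B keeps its call with a library left out only without shControl replicate 2 (adjusted p = 0.012), and otherwise lies at 0.085 to 0.15. It also loses it in DESeq2 (-0.17, adjusted p = 0.11), with scaling by library total alone (-0.16, 0.052), with gene length trend offsets (-0.12, 0.098) and with effective-length offsets (-0.15, 0.31).

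None of the other SMADs is called by edgeR or DESeq2, and none has an unadjusted p under 0.05. SMAD1, SMAD5 and SMAD9 carry the BMP signal and SMAD6 inhibits it. SMAD5 is at 96.1 ± 0.52 CPM in shControl and 95.3 ± 1.65 CPM in shSTBD1, and SMAD1 is at 16.1 ± 0.75 against 15.3 ± 0.97 CPM (SD, n = 3). SMAD6 and SMAD9 are lower in abundance, at 6.82 ± 0.67 and 4.47 ± 0.33 CPM in shControl and 6.04 ± 0.26 and 4.33 ± 0.45 CPM in shSTBD1. The log2 fold changes of SMAD1, SMAD5, SMAD6 and SMAD9 are -0.076, -0.013, -0.17 and -0.051.

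Of 13 negative regulators, all tested, only SKI passes, or 7.69%, close to the 7.54% of all tested genes called lower. SKI, a co-repressor that binds SMADs, is at -0.15 in log2 fold change (adjusted p = 0.029 in edgeR), kept with a library left out only without shControl replicate 2 (0.0040) and otherwise at 0.060 to 0.13. Gene length trend offsets give SKI -0.12 with an adjusted p of 0.057, and effective-length offsets give -0.22 with 0.069. Of 7 adaptors and co-activators, 2 are lower, or 28.6%. These are the histone acetyltransferases EP300 and CREBBP, which many transcription factors use besides SMADs. The log2 value is -0.20 for EP300 (standard error 0.042, adjusted p = 0.0038 in edgeR) and -0.15 for CREBBP (standard error 0.036, adjusted p = 0.0073), and both keep their calls with any library left out. With effective-length offsets neither is called, EP300 at a larger decrease of -0.31 (adjusted p = 0.16) and CREBBP at -0.048 (0.88).

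The genes known to be induced by TGF-beta do not move in 1 direction. Of 22 listed, 18 are tested, 4 are higher and 1 is lower, with a median log2 fold change of 0.11. The share called is 27.8%, against 15.8% of all tested genes, of which 8.22% are higher and 7.54% lower. At an unadjusted p under 0.05 in edgeR, 5 of the 18 are higher and 3 lower. ANGPTL4, a secreted inhibitor of lipoprotein lipase, goes up from 41.9 ± 4.19 CPM in shControl to 64.0 ± 1.16 CPM in shSTBD1 (SD, n = 3; log2 fold change 0.62 with a standard error of 0.057, adjusted p = 1.8e-06 in edgeR). CDKN1A, the cell cycle inhibitor p21, goes up from 263 ± 4.88 CPM in shControl to 359 ± 6.13 CPM in shSTBD1 (SD, n = 3; log2 fold change 0.45 with a standard error of 0.031, adjusted p = 6.9e-08 in edgeR). JUNB and BHLHE40, transcription factors of many responses, have log2 fold changes of 0.35 and 0.19. COL7A1, the collagen of anchoring fibrils, is lower at -0.34 (adjusted p = 0.0088 in edgeR), and DESeq2, at the same -0.34, does not call it (0.066), nor does edgeR with effective-length offsets (-0.37, 0.39). All of these genes also respond to signals other than TGF-beta, ANGPTL4 and CDKN1A among them.

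The 3 genes listed as induced by BMP are all called higher, as are 8.22% of all tested genes. ID1, ID2 and ID3 encode inhibitors of basic helix-loop-helix factors. ID1 is at 258 ± 25.8 CPM in shControl and 307 ± 3.00 CPM in shSTBD1, ID2 at 66.6 ± 4.54 against 84.1 ± 3.42 CPM and ID3 at 68.8 ± 4.63 against 83.5 ± 2.84 CPM (SD, n = 3). In log2 these are changes of 0.25, 0.34 and 0.28 (edgeR, adjusted p = 0.0034, 1.7e-04 and 7.7e-04). In each of the 3 the shSTBD1 libraries are above the controls. Of all tested genes, 33.6% have groups that do not overlap, counting both directions. Without shControl replicate 1 the log2 fold change of ID1 is 0.17 (adjusted p = 4.8e-05 in edgeR). With effective-length offsets ID1 is not called at a change of like size, 0.24 (adjusted p = 0.088), nor is BHLHE40 at a smaller one, 0.13 (0.17).

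**Figure D5:**
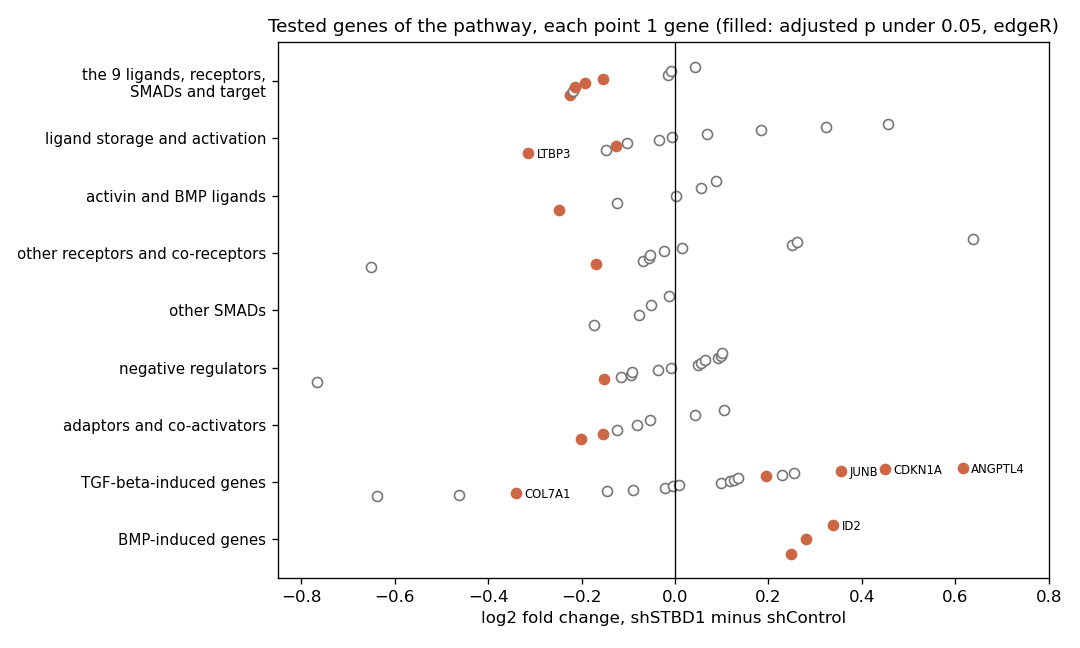
Log2 fold change, shSTBD1 minus shControl (horizontal axis), of each tested gene, in rows by role, with filled points for an adjusted p under 0.05 in edgeR. Among the 9 named genes the 4 filled points lie below 0, as do LTBP3 at -0.31 and COL7A1, listed as induced by TGF-beta, at -0.34. The 3 genes induced by BMP and ANGPTL4, CDKN1A and JUNB lie above 0.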

How the data were processed

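RNA from 3 shControl and 3 shSTBD1 biological replicates of HCT116 cells was grouped by the sample labels. Per the labels and the paper's methods, the authors used STAR 2.7.1a to align reads to Hg38, with genes from Ensembl release 93, and RSEM 1.3.1 to quantify them. The deposited files give per library the expected count, which is not normalized, the TPM and FPKM values and the transcript lengths. The authors' files also hold RSEM's posterior standard deviation of each count, a score of how far reads are shared between genes. Whether the counting used strand is not given in the sources used here. Library totals bound the precision, and limits on counts cover counting error only.

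The 9 genes and the other gene lists were chosen with earlier results of these data known. The expected counts, made whole by rounding, were filtered with filterByExpr, scaled by TMM and compared with edgeR 4.0.16 (quasi-likelihood F-test, R 4.3.3), with p-values adjusted by Benjamini-Hochberg over all 15566 tested genes and no term for the replicate number. The F statistic and the log2 fold change gave standard errors and 95% intervals. Ratios were compared by two-sided exact permutation over the 10 divisions of the libraries, and log2 weighted transcript lengths with limma 3.58.1. Positions are those of GENCODE release 44 on GRCh38, a later annotation than the files use, and promoter windows come from RefSeq. All listed genes were matched to 1 Ensembl identifier.

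Named genes are the 9, STBD1, TGFB3, TGFBR3, the other SMADs and, from each pathway list, up to 5 genes with the largest absolute log2 fold change at an adjusted p under 0.05 and a mean of at least 1 CPM. Alternatives were DESeq2 1.42.0, library size or upper-quartile scaling, unrounded counts, all genes with a count, only genes that reach 10 counts in every library, effective-length offsets, a gene length trend, a replicate block alone or with that trend, limma on log2(TPM + 1) and log2(TPM + 0.1), and each library left out. GC content offsets, with and without the block, and limma on log2 CPM were chosen after seeing the data. On simulated counts for 15566 genes, edgeR recovered 45% of 100 genes changed by 0.2 on the log2 scale and 97% of 100 changed by 0.5, DESeq2 36% and 92%, and limma on log2(TPM + 1) 0% and 39%. Of the unchanged genes, edgeR called 4, DESeq2 1 and limma 2. The simulation gave every gene the same dispersion, had no library that stands apart and changed no gene of low count. For limma on log2(TPM + 1), it divided the counts by each library's real effective lengths, which played no part in drawing them. Only that fit met differences in length, so its recovery is not comparable with that of edgeR and DESeq2. The shares from the simulation therefore need not hold for the real libraries.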

Additional observations from a re-analysis of the deposited data

How the results depend on the processing

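SMAD3, TGFBR2, TGFBR1 and SMAD4 kept their direction under every alternative. The number of the 9 genes called, 4, all lower, was 2 with DESeq2, 1 with effective-length offsets, and 0 in limma fits of log2(TPM + 1) or log2(TPM + 0.1), and with each library left out it ran from 2 to 4. The pathway genes called, 15, became 9 with effective-length offsets and 6 with either limma fit on TPM. The 9 include a gene that is not among the 15. It is FN1, listed as induced by TGF-beta and named here outside the fixed rule (log2 fold change -0.14, adjusted p = 0.10 in edgeR without these offsets). Over all genes, 2453 calls became 1459 with DESeq2, 511 with effective-length offsets, 292 and 290 in the limma fits on TPM, and 1570, 1409 and 1497 without shSTBD1 replicate 1, 2 and 3. Without shControl replicate 1 they rose to 2577, while 2 of the 9 genes were called. Limma on log2 CPM called 2436 genes, with the same 4 of the 9 among them. Why effective-length offsets and TPM give fewer calls was not tested. STBD1 had log2 fold changes of -0.54 (adjusted p = 0.065) and -0.65 (0.067) in the limma fits on TPM.

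Signs turned where no call was made. With effective-length offsets TGFB1, TGFB2, SMAD2 and SMAD5 came to 0.032, 0.59, 0.056 and 0.11, in limma on log2(TPM + 1) to 0.021, 0.099, 0.045 and 0.098, and with log2(TPM + 0.1) to 0.022, 0.35, 0.046 and 0.10. Gene length trend offsets gave 0.012 for SMAD5 with and without the replicate block, and library size gave 0.0021 for SMAD2. With 1 library left out, TGFB1 ran from -0.044 to 0.021, TGFB2 from -1.02 to 0.37, SMAD2 from -0.029 to 0.0080, SMAD7 from -0.011 to 0.079 and SMAD9 from -0.096 to 0.037. The log2 ratio of TGFB2 to TGFB1 was -0.30 from expected counts and ran from -0.090 to 0.88 with a library left out. No other gene named by the fixed rule turned its sign under the alternatives run. The median over all tested genes, 0.0023, turned to -0.0035 with gene length trend offsets and -0.0089 in limma on log2(TPM + 1), and with GC content offsets more genes were lower (1260) than higher (1215).

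With the replicate block, 4 of the 9 genes were called, 2579 genes in all, and the block changed the call of none of the 9. Deviations of libraries with the same number from their group means correlated at 0.071, 0.068 and -0.0084, against a mean of -0.022 for other numbers. Of the 6 libraries, 4 correlated best with their own number. Whether the numbers mark a pairing cannot be told from these values. Counts of 5 to 19 limit TGFB2, and TGFBI could not be tested at this depth.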
